A study of Mus musculus with 16 samples.

Results

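Nucleic acid sensors are the proteins with which a cell recognises viral or misplaced RNA and DNA. The 8 genes described here were chosen by symbol, namely Ddx58, Ifih1, Dhx58, Zbp1, Tlr3, Eif2ak2, Adar and Aim2. All 8 were found among the 18480 entries of each library, and all 8 reached the level required for testing, as did 11868 entries in all. RNA was measured in 16 libraries from tumours of MC38, a mouse colon carcinoma line, grown as grafts under the skin of mice. Each of 4 groups held 4 libraries. Control tumours had neither intervention, as far as the labels say, exercise tumours came from exercised mice, anti-PDL1 tumours from mice given an antibody against the checkpoint ligand PD-L1, and the combination, labelled exercise with anti-PDL1, had both. The series title speaks of blocking PD-1, the receptor of that ligand, while the labels name anti-PDL1, the name used here. Mouse strain and age, antibody dose, exercise schedule, sampling time and any control antibody are not stated by the labels. Nor do the labels tie a library to an animal, so the p-values reflect the spread between libraries, which may be technical only.

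The sensors divide the work by ligand and place. Ddx58 (RIG-I) and Ifih1 (MDA5) are cytosolic helicases that bind viral or unedited double-stranded RNA and signal through the adaptor Mavs to switch on type I interferon genes, and Dhx58 (LGP2) is a related helicase that tunes them. Tlr3 binds double-stranded RNA in endosomes, Eif2ak2 (PKR) stops translation when it binds such RNA, Zbp1 binds left-handed double helices and can start necroptosis, Aim2 assembles an inflammasome on cytosolic DNA, and Adar edits double-stranded RNA so that the sensors ignore it. Many of these genes are themselves induced by interferon, through transcription factors that bind the interferon-stimulated response element in their promoters.

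Of the 8 genes, 6 had an entry in the RefSeq promoter table for GRCm38.p6, which covers 250 bases before to 50 bases after a start. Dhx58 and Zbp1 had none. Those 300 bases were searched on both strands for the response element core GAAANNGAA, and 4 of the 6 genes held a match, Ddx58, Ifih1, Eif2ak2 and Adar. Tlr3 and Aim2 held none. Of all 32851 promoters in the table, each start counted by itself, 8.56% held a match, whereas Adar counted through only the third of its 3 starts. The matches are shown because the genes that carry them varied together across the libraries, as did Tlr3, which held none. Each stretch is 29 bases, read 5′ to 3′ on the strand of the gene, with the match in capitals. Positions count from 1 at the annotated start, and the match in Ddx58 and the upstream match in Ifih1 read on the opposite strand. The stretches near Adar belong to the third of its 3 listed starts, and the other two starts held no match.
Ddx58, from position 4, chr4:40239804-40239832, minus strand: ctgaggcagtTTCGATTTCctatggccag
Ifih1, from position -112, chr2:62646349-62646377, minus strand: agaattcgcgTTCCCTTTCctgtttctca
Ifih1, from position 33, chr2:62646206-62646234, minus strand: agaagagaatcGAAACAGAAaccgatctg
Eif2ak2, 2 overlapping matches from position 19, chr17:78882533-78882561, minus strand: ccgccggGAAAACGAAACAGAAgagaacc
Adar, from position -249, chr3:89730468-89730496, plus strand: gGAAAAGGAActtcctcacagggcggaga
Adar, from position 34, chr3:89730739-89730767, plus strand: tttcaaggaaacGAAAGTGAActctgggg

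In Ddx58, Ifih1, Eif2ak2 and at the third Adar start, a match lay within the first 50 transcribed bases. The palindromic gamma-activated site TTCNNNGAA, a second kind of interferon response sequence, had a match in 2 of the 6 genes, Eif2ak2 and Adar, against 8.3% of all promoters. A match of letters is a description and does not show that a factor binds there.

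Values are FPKM as deposited, that is fragments per kilobase scaled to the size of the library, so levels of different genes can be set side by side. FPKM summed to between 478672 and 529732 per library. The depth of the libraries is unknown from such values, and no counting interval is given. On the first principal component, with 30.1% of the variance, control libraries 1 and 2 lay at -30.8 and -41.4. These libraries also had the highest summed level of 10 macrophage markers, 804 and 1072 FPKM against 222 and 402 FPKM in the other controls. Their endothelial marker sums, 48.4 and 93.0 FPKM, were the highest as well. Control library 2 also held 261 FPKM of skeletal muscle markers, against 1.15 to 8.79 FPKM in every other library. Of 7 epithelial markers, Epcam, Krt8, Krt18, Krt20 and Vil1 stayed at or below 0.26 FPKM in every library, while Cdh1 lay between 1.24 and 3.05 FPKM and Krt19 between 0.04 and 4.87 FPKM, the latter highest in a control. In bulk tumour RNA, fewer cells of a type and less RNA per cell cannot be told apart.

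No sensor passed the test in any comparison. For anti-PDL1 against control the count was 0 of 8, where 30 of all 11868 genes tested passed (0.253%), 19 of them higher and 11 lower. The test was limma on log2(FPKM + 1) with Benjamini-Hochberg adjustment over all genes tested, at an adjusted p of 0.05. The fitted difference was above 0 for 8 of 8 sensors, against 42.3% of all genes tested. Its median was 0.62 on the log2 scale against -0.04 over all genes tested. The sensors other than Aim2 varied together, so their signs are not independent. At an unadjusted p under 0.05 the count was 5 of 8, against 23.5% of all genes. With every library weighted by its own spread, limma passed 4 of the 8, Ddx58, Dhx58, Zbp1 and Adar. It then also passed 835 of all 11868 genes tested, so the absence of calls depends on that setting. Without control libraries 1 and 2 the median was 0.42, 0 of 8 passed, and Ddx58, Tlr3, Eif2ak2 and Adar were at 0.51, 0.22, 0.14 and 0.23 on the log2 scale, each less by over 1.5 times than with all libraries.

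**Figure D1:**
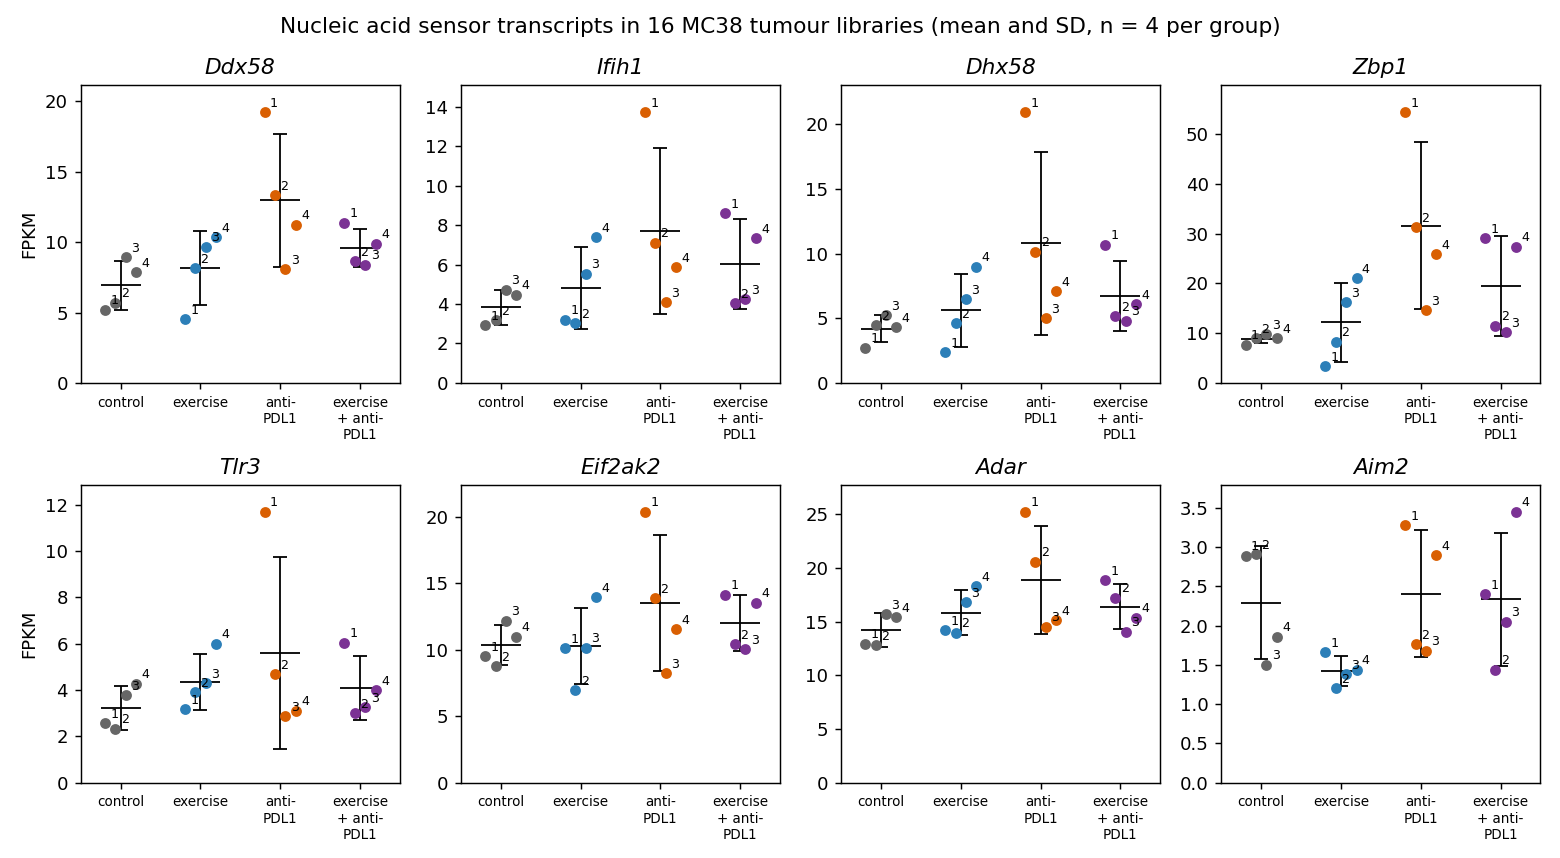
FPKM of the 8 nucleic acid sensors in each of the 16 libraries, by group, on linear axes from 0, with the mean and SD of the 4 libraries of a group. Apart from Aim2, the anti-PDL1 libraries have the widest SD, with library 1 the highest and library 3 the lowest of that group in all 8 panels.

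Ddx58, the sensor of RNA with a 5′ triphosphate, stood at 5.21, 5.69, 8.94 and 7.86 FPKM in control libraries 1 to 4 and at 19.3, 13.3, 8.08 and 11.3 FPKM in the anti-PDL1 libraries. Anti-PDL1 library 3 lay below control library 3, so the groups overlapped, while the other three anti-PDL1 libraries lay above every control. The difference was 0.79 ± 0.25 (SE) on the log2 scale with a limma adjusted p of 0.101. Without anti-PDL1 library 1 it was 0.59, and without anti-PDL1 library 3 it was 0.97. Exercise libraries held 4.51, 8.14, 9.68 and 10.4 FPKM and combination libraries 11.4, 8.63, 8.41 and 9.90 FPKM. The combination libraries were closer together than those with antibody alone for this gene, with a mean of 9.58 ± 1.37 FPKM (SD, n = 4) against 13.0 ± 4.71 FPKM (SD, n = 4) with anti-PDL1 alone.

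Ifih1, which binds long double-stranded RNA, had lower levels in every group. Control libraries held 2.94, 3.18, 4.73 and 4.48 FPKM and anti-PDL1 libraries 13.7, 7.10, 4.09 and 5.87 FPKM. Here too anti-PDL1 library 3 fell within the control range. The difference was 0.75 ± 0.32 (SE) on the log2 scale (limma adjusted p = 0.174) and 0.46 without anti-PDL1 library 1, which moved it by over 1.5 times. Exercise libraries ranged from 3.04 to 7.40 FPKM and combination libraries from 4.03 to 8.60 FPKM, both overlapping the control range and reaching above it.

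Dhx58, the regulatory helicase of the family, had 2.72, 4.45, 5.22 and 4.33 FPKM in control libraries and 21.0, 10.2, 5.01 and 7.11 FPKM in anti-PDL1 libraries. Library 1 stood well above the other three, and library 3 again lay inside the control range. The difference was 1.04 ± 0.38 (SE) on the log2 scale (limma adjusted p = 0.136), and 0.68 without anti-PDL1 library 1. Exercise libraries ranged from 2.36 to 9 FPKM and combination libraries from 4.83 to 10.7 FPKM.

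Zbp1 had the largest fitted difference of the 8 sensors for anti-PDL1 against control. Control libraries lay close together at 7.72, 8.97, 9.75 and 8.93 FPKM. Anti-PDL1 libraries held 54.4, 31.3, 14.6 and 25.9 FPKM. Every anti-PDL1 library lay above every control library, as was the case for 1 of the 8 sensors and for 3.57% of all genes tested. The group means were 8.84 ± 0.838 FPKM (SD, n = 4) and 31.6 ± 16.7 FPKM (SD, n = 4), and the difference was 1.59 ± 0.49 on the log2 scale with a limma adjusted p of 0.0986. Combination libraries, at 29.04, 11.5, 10.2 and 27.4 FPKM, also all lay above the controls, again for 1 of 8 sensors against 1.46% of all genes. Exercise libraries ran from 3.35 to 21.1 FPKM, on both sides of the controls. No sensor had every exercise library above every control library, against 4.21% of all genes.

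Tlr3, the endosomal receptor, was low, with control libraries between 2.33 and 4.27 FPKM and exercise libraries between 3.17 and 6.01 FPKM. Anti-PDL1 library 1 held 11.7 FPKM and the other three 4.68, 2.88 and 3.11 FPKM, so a single library set the group mean of 5.59 ± 4.15 FPKM (SD, n = 4). The difference from control was 0.49 ± 0.31 (SE) on the log2 scale (limma adjusted p = 0.352) and 0.11 without that library.

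Eif2ak2, the translational brake, and Adar, the editor, were the most abundant sensors in control tumours. Eif2ak2 ranged from 8.74 to 12.2 FPKM in controls and from 8.22 to 20.4 FPKM with anti-PDL1, a difference of 0.30 ± 0.22 (SE) on the log2 scale with a limma adjusted p of 0.434. Without anti-PDL1 library 1 it was 0.09. Adar ranged from 12.8 to 15.7 FPKM in controls and from 14.5 to 25.2 FPKM with anti-PDL1, a difference of 0.36 ± 0.15 (SE) on the log2 scale with a limma adjusted p of 0.175, and of 0.21 without that library. On the log2 scale these fitted differences were smaller than those of the RIG-I-like helicases and Zbp1, which was not tested.

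Aim2, the DNA sensor, went its own way. Control libraries held 2.89, 2.91, 1.5 and 1.86 FPKM and exercise libraries 1.66, 1.20, 1.38 and 1.44 FPKM. The 2 high controls were libraries 1 and 2, those with the most macrophage marker RNA. Anti-PDL1 libraries held 3.28, 1.76, 1.68 and 2.90 FPKM and combination libraries 2.40, 1.44, 2.05 and 3.45 FPKM. Anti-PDL1 differed from control by 0.05 ± 0.20 (SE) on the log2 scale (limma adjusted p = 0.912), with an unadjusted interval of 95% from -0.39 to 0.48. For exercise against control the difference was -0.42 ± 0.20 (SE), with an interval from -0.85 to 0.01 and a limma adjusted p of 0.288. With library weights it was -0.54 with a limma adjusted p of 0.0490, in a fit where 2274 of all 11868 genes tested passed. Without control libraries 1 and 2 the exercise difference was -0.15, with a limma adjusted p of 0.833. Aim2 was then at 0.32 for anti-PDL1 and at 0.28 for the combination against control.

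Some of these values share genome span with other genes. Within the span of Aim2 on chromosome 1 (173349547 to 173466040, GRCm38.p6) the annotation places Cadm3, an adhesion molecule, at 0.01 to 2.11 FPKM. It also places n-TRtct5 there. Cadm3 was highest in control libraries 2 and 1, at 2.11 and 0.77 FPKM, which were also the highest controls for Aim2. Adar on chromosome 3 (89714469 to 89753455) overlaps Chrnb2, at 0.4 to 1.18 FPKM, Ifih1 overlaps Gm39839, Dhx58 overlaps Gm38483, and Eif2ak2 overlaps Gm6548 and Gm26637. Only whole gene spans were compared, not exons, and whether counting used strand is not stated. Whether reads from an overlapping gene entered the value of a sensor was not tested. No overlap was listed for Ddx58, Zbp1 or Tlr3.

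Averaged over exercised and unexercised tumours, the antibody gave 0 of 8 sensors past the threshold, against 286 genes of all tested (2.41%), 147 higher and 139 lower. Zbp1 came closest, with a difference of 1.16 ± 0.34 (SE) on the log2 scale and a limma adjusted p of 0.083. Ddx58 differed by 0.52 ± 0.17 (SE), with an adjusted p of 0.112 in limma, and Dhx58 by 0.65 ± 0.27 (SE), with an adjusted p of 0.177. The median over the 8 sensors was 0.39, against -0.03 over all genes tested, and 8 of 8 were above 0, against 41.4% of all genes. At an unadjusted p under 0.05 there were 4 of 8, against 22.2% of all genes.

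**Figure D2:**
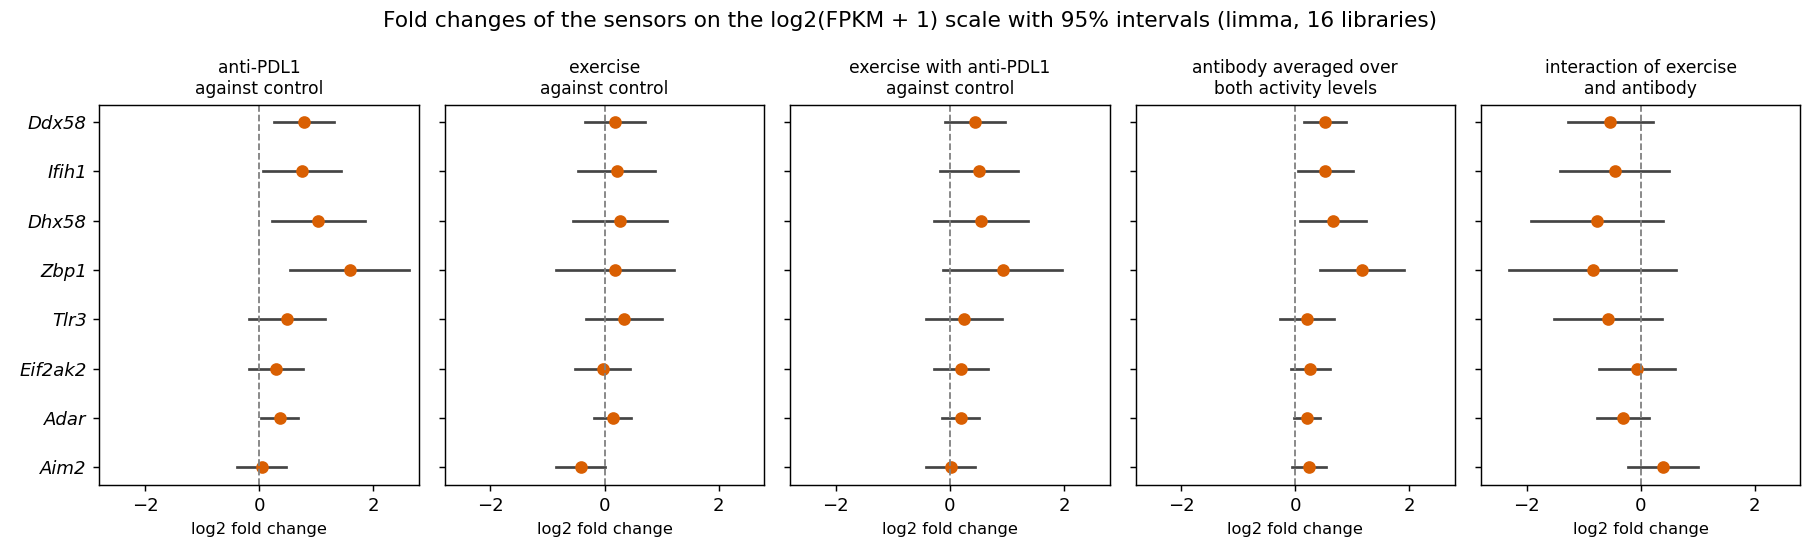
Fitted log2 difference of each sensor in 5 comparisons, with intervals of 95% that are not adjusted for the number of genes. For anti-PDL1 against control the 8 points lie above 0, from 0.05 for Aim2 to 1.59 for Zbp1, and for the interaction all but Aim2 lie below 0.

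Exercise alone moved none of the sensors past the threshold (0 of 8, and 0% of all genes tested). None of the 8 had an unadjusted p under 0.05 either, beside 2131 of all genes tested (18.0%). Besides Aim2, the differences ran from -0.03 for Eif2ak2 to 0.34 for Tlr3 on the log2 scale. The unadjusted interval of 95% for Zbp1, from -0.86 to 1.22, was the widest of the 8. Without control libraries 1 and 2 the differences other than that of Aim2 ran from -0.19 for Eif2ak2 to 0.11 for Zbp1. Averaged over tumours with and without antibody, exercise gave a median of -0.08 over the sensors, and again 0 of 8 and 0% of all genes passed.

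The combination against control gave 0 of 8 sensors and 0% of all genes past the threshold. The differences were 0.92 ± 0.49 (SE) on the log2 scale for Zbp1 (limma adjusted p = 0.650), 0.54 ± 0.38 for Dhx58 and 0.44 ± 0.25 for Ddx58, and the median of the sensors was 0.34. Without combination library 1, Dhx58 was at 0.32 and the median at 0.22. Without control libraries 1 and 2, Ddx58 was at 0.16 and the median at 0.22. Set against anti-PDL1 alone, the combination was lower for 8 of 8 sensors, where 55.2% of all genes were above 0. The median of the sensors was -0.24, none passed (0% of all genes), and the limma adjusted p was 0.968 or above for all. Without anti-PDL1 library 1, that median was 0.01, with 4 of the 8 below 0, Ddx58 at -0.15, Dhx58 at -0.14, Zbp1 at -0.36 and Adar at -0.02. Against exercise alone the combination also gave 0 of 8 and 0% of all genes, with Aim2 at 0.43 ± 0.20 (SE) and a limma adjusted p of 0.365. These comparisons share groups and are not independent of each other.

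The interaction asks whether the difference with antibody was the same in exercised and unexercised tumours. It gave 0 of 8 sensors and 0% of all genes past the threshold. The estimate was -0.84 ± 0.69 (SE) on the log2 scale for Zbp1 (limma adjusted p = 0.559), -0.77 ± 0.54 for Dhx58 and -0.54 ± 0.35 for Ddx58. It was below 0 for 7 of the 8, Aim2 being the exception at 0.39 ± 0.29, where 54.9% of all genes were above 0. Without anti-PDL1 library 1 the median moved from -0.50 to -0.18, and without control libraries 1 and 2 to -0.25.

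By group mean, Ddx58, Ifih1, Dhx58, Zbp1 and Adar had the same order, with control lowest, then exercise, then the combination, and anti-PDL1 highest. Tlr3 had exercise above the combination, and Eif2ak2 and Aim2 had exercise below control. For none of the 8 did neighbouring groups in its order stand apart without overlap of their libraries.

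Much of the variation lay between libraries of a group. Anti-PDL1 library 1 was the highest of its group for 8 of 8 sensors and library 3 the lowest for 8 of 8. In the exercise group library 4 was highest for 7 of 8, and in the combination group library 1 was highest for 7 of 8, with Aim2 the exception in both. The summed level of the sensors ran from 59.1 to 169 FPKM within the anti-PDL1 group and from 46.5 to 61.8 FPKM among controls. The spread within the anti-PDL1 group was thus wider than the distance between the medians of these groups, 53.6 FPKM in controls and 92.8 FPKM with anti-PDL1.

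**Figure D3:**
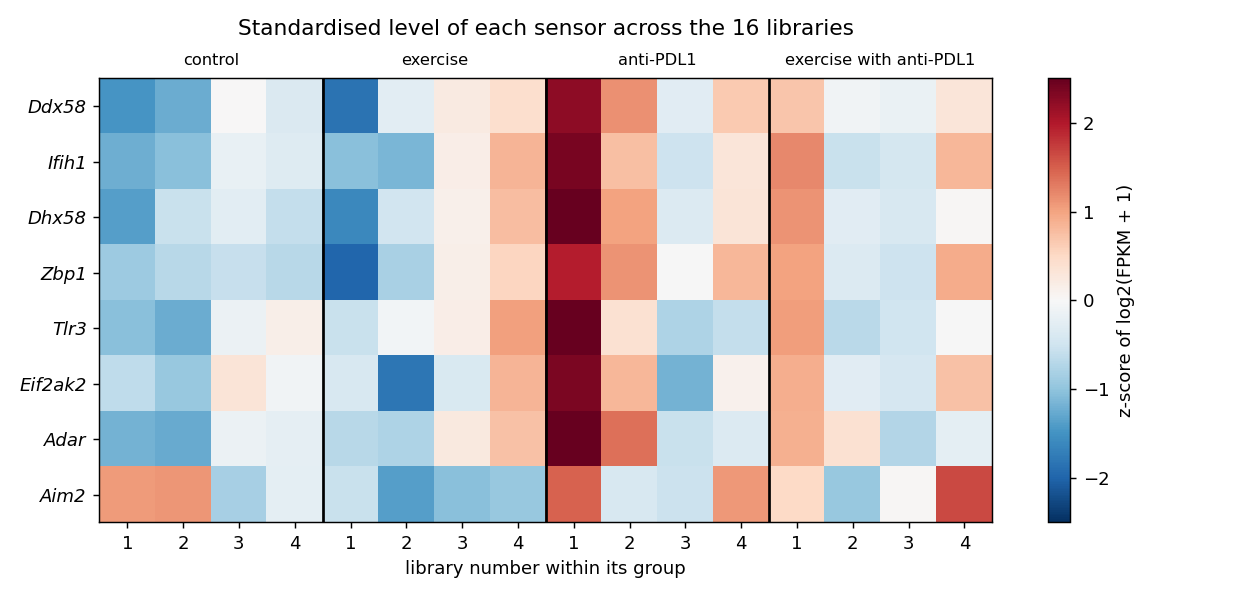
Level of each sensor in each library as a z-score of log2(FPKM + 1) over the 16 libraries. The 7 sensors other than Aim2 share their high libraries, above all anti-PDL1 library 1. Aim2 was highest in combination library 4, followed by anti-PDL1 library 1, and was also high in control libraries 1 and 2 and anti-PDL1 library 4.

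Across the 16 libraries the 7 sensors other than Aim2 varied together. Their 21 pairs had Pearson correlations of 0.70 to 0.95, with a median of 0.88, on log2(FPKM + 1). After the group means were subtracted, the range was 0.71 to 0.93. Without anti-PDL1 library 1 and combination library 1, the libraries farthest from the median, it was 0.46 to 0.94. The 7 pairs with Aim2 ran from 0.05 to 0.41, from -0.02 to 0.34 after the group means were subtracted, and from -0.45 to 0.22, with a median of -0.12, without those 2 libraries. The libraries share groups and each pair shares the scaling of its library, so these values are a description.

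The genes whose levels over the 16 libraries were most like the mean z-score of the 8 sensors were Parp14 (r = 0.98), Trim21 (0.97), Parp9 (0.97), Ifi203 (0.96) and Ifi44 (0.96). For single sensors the closest were Oas3 and Dtx3l for Ddx58, Parp14 and Trim21 for Ifih1, Usp18 and Parp14 for Dhx58, and Gbp3 and Rtp4 for Zbp1, with r from 0.96 to 0.98. Daxx and Trim34a were closest to Tlr3 (both 0.93), Zfp945 and Mitd1 to Eif2ak2 (0.94 and 0.92), and Helz2 and Daxx to Adar (0.94 and 0.93). Aim2 had other neighbours, Casp1 (0.92), the protease its inflammasome activates, and Gm1966 (0.90).

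**Figure D4:**
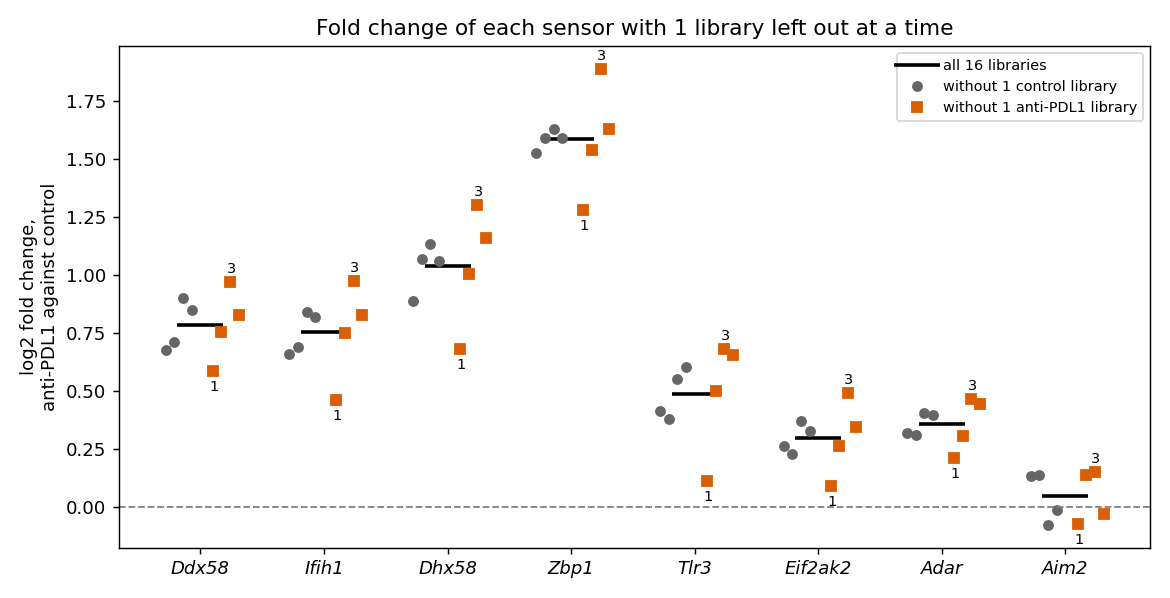
Log2 difference of each sensor for anti-PDL1 against control with all libraries and with each library of those groups left out in turn. Leaving out anti-PDL1 library 1 takes Tlr3 from 0.49 to 0.11 and Eif2ak2 from 0.30 to 0.09, and Zbp1 stays at 1.28 or above.

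Downstream of the RNA sensors, 12 adaptors, kinases and transcription factors were tested, and 0 passed for anti-PDL1 against control or for the antibody averaged over activity. Of all genes tested, 0.253% and 2.41% passed in these comparisons. The adaptor Mavs had nearly the same mean in every group, from 17.1 to 17.6 FPKM. Closest for anti-PDL1 against control were Trim25, the ubiquitin ligase linked to RIG-I, at 0.75 ± 0.21 (SE) on the log2 scale (limma adjusted p = 0.0792), and Irf7, an interferon-induced transcription factor, at 1.25 ± 0.50 (limma adjusted p = 0.155). Among 16 other RNA sensors and RNA-degrading enzymes 0 passed in both comparisons. There Ddx60, a helicase related to the RIG-I family, was at 1.53 ± 0.42 (limma adjusted p = 0.081), and the helicase Dhx9 at -0.50 ± 0.14 (limma adjusted p = 0.0842).

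Other arms had members that passed for the antibody averaged over activity, where 2.41% of all genes tested passed. In interferon signalling, Irf9, part of the complex that binds the response element, rose by 0.66 ± 0.16 (SE) on the log2 scale (limma adjusted p = 0.0428), and Irf1, an interferon-induced transcription factor, by 0.69 ± 0.16 (limma adjusted p = 0.0382). Irf9 went from 13.3 ± 1.80 FPKM (SD, n = 4) in controls to 29.2 ± 6.42 FPKM (SD, n = 4) with anti-PDL1, and from 16.2 ± 4.89 FPKM (SD, n = 4) with exercise to 19.5 ± 5.55 FPKM (SD, n = 4) in the combination. Its interaction was -0.80 ± 0.31 (limma adjusted p = 0.366). Of 12 inflammasome and necroptosis genes 2 rose and 0 fell, namely Casp4, the caspase that senses lipopolysaccharide, by 0.99 ± 0.21 (limma adjusted p = 0.0308) and Mlkl, which permeates the membrane in necroptosis, by 0.36 ± 0.08 (limma adjusted p = 0.0301). Of 12 DNA sensing genes 1 rose, Samhd1, which degrades nucleotides, by 0.50 ± 0.13 (limma adjusted p = 0.0489), and of 9 genes of the translation arm 1 rose, Ddit3 (CHOP), by 0.74 ± 0.16 (limma adjusted p = 0.0351). None of these 6 genes passed when control libraries 1 and 2 were both left out, where the adjusted p ran from 0.121 to 0.192, although each kept its direction. With single libraries left out in turn, the call held in 4 of 16 fits for Samhd1, 5 for Irf1 and Irf9, 8 for Ddit3 and 9 for Casp4 and Mlkl. For anti-PDL1 against control none of the 4 lists had a gene past the threshold.

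Of the interferon genes, Ifnb1 and Ifng were analysed here. Ifnb1 was listed at 0 in 10 of 16 libraries and reached 0.27 FPKM at most, and Ifng was listed at 0 in 3 and reached 1.28 FPKM, both maxima in anti-PDL1 library 1. Neither reached 1 FPKM in 4 libraries, as testing required.

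The summed level of 11 markers of T and NK cells had a higher median in the antibody groups. It was 4.75 to 10.1 FPKM in controls and 9.62 to 16.3 FPKM with exercise. With anti-PDL1 it was 17.0 to 47.2 FPKM and in the combination 10.5 to 29.02 FPKM. The largest means with anti-PDL1 were 11.8 FPKM for Gzmb, 9.15 FPKM for Prf1 and 4.00 FPKM for Nkg7. Cd4 hardly differed between controls and anti-PDL1, at 0.4675 and 0.465 FPKM, nor did Ncr1, at 0.105 and 0.1125 FPKM. The remaining markers had higher means with anti-PDL1 than in controls. Of the 4 markers that could be tested, Nkg7 and Gzmb, both of cytotoxic granules, rose with the antibody averaged over activity. They rose by 0.91 and 1.34 on the log2 scale (limma adjusted p = 0.0223 and 0.0344), where 2.41% of all genes tested passed. Leaving out single libraries kept the call in 14 of 16 fits for Nkg7 and 6 for Gzmb, and without control libraries 1 and 2 the adjusted p was 0.0755 and 0.161. Nkg7 also passed for anti-PDL1 against control, as did 0.253% of all genes tested. It rose there by 1.26 (limma adjusted p = 0.0436), a call that held in 5 of 16 such fits. Anti-PDL1 library 1 had the highest marker sum and the highest sensors, but library 3, the lowest of its group for all 8 sensors, had the second highest sum, 38.3 FPKM. Of 10 macrophage markers 0 passed for anti-PDL1 against control, and 9 of 10 were below 0, where 42.3% of all genes were above 0. The macrophage marker sums ran from 156 to 398 FPKM with anti-PDL1. In control libraries 1 and 2 they were 804 and 1072 FPKM, and in the other controls 222 and 402 FPKM. The part of either marker list in the levels of the sensors was not tested.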

How the data were processed

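The authors deposited an FPKM value with 2 decimals for each gene and library, per the file headers. The submitters' processing notes list HISAT, Bowtie2 and GRCm38.p6 without versions. Library kit, strand setting and quantifying program are not stated. Low values were not turned into reads, and the depth is unknown.

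Values were taken as log2(FPKM + 1), a scale that understates changes of low genes. The test covered genes that reached 1 FPKM in 4 or more libraries. All 16 libraries entered a single fit by group (limma 3.58.1, R 4.3.3; eBayes, trend and robust on), and Benjamini-Hochberg adjustment was done per contrast, for 8 contrasts. The fit was tested on simulated data for 11868 genes, of which 200 were changed, with noise drawn independently for each gene. It recovered 90% of those changed by 1 on the log2 scale for anti-PDL1 against control and 72% for the interaction. These shares are over genes of all spreads, not over the sensors, most of which varied together. All 8 sensors passed the filter, so no exact permutation test was needed. The sensors are always named. Of the other lists, genes past the threshold are named, up to 4 by smallest p, or else the 2 with the smallest p, in the comparisons described. A result of the interferon signalling list is not reported here. Genes named by likeness are the 5 closest to the mean z-score and the 2 closest to each sensor. Mavs, Cadm3, Chrnb2, Ifnb1, Ifng, Prf1, Cd4, Ncr1, Cdh1 and the Krt genes, Epcam and Vil1 were named outside that rule, after their values were seen. The members and lists were chosen with earlier results of these data known. Coordinates and promoter sequences are from RefSeq, GRCm38.p6. Figures were drawn with matplotlib 3.10.9.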

Additional observations from a re-analysis of the deposited data

How the results depend on the processing

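Across the alternatives (normalization, pseudocount, filter, limma settings, groups in the fit, replicate block, library weights and each library left out), the count of sensors past the threshold stayed at 0 in every contrast except with library weights, where it was 4 for anti-PDL1 against control and 1 for exercise against control. Those weights also took the genes passing from 30 to 835 and from 0 to 2274 in these contrasts, and the cause was not tested. With the replicate block, 0 sensors passed in each contrast and 15 and 93 genes passed for anti-PDL1 against control and the averaged antibody. Same-numbered libraries of different groups deviated with correlations of -0.62 to 0.34, 6 of 24 over 0.1. For other numbers these were -0.39 to 0.44, 28 of 72 over 0.1. By this measure 1 of 16 libraries was closest to its own number. The labels do not say what the numbers mean, and whether same-numbered libraries share a batch was not tested. Small differences changed sign. With library weights, Aim2 was at -0.088 and -0.090 on the log2 scale for anti-PDL1 and for the combination against control, Eif2ak2 at 0.0053 for exercise against control and Ifih1 at 0.0084 for averaged exercise. Without controls 1 and 2, Ddx58 and Ifih1 were at -0.086 and -0.020 for exercise against control, Tlr3 at -0.019 for the combination against control and -0.084 for averaged exercise, and Eif2ak2 at 0.089 for the interaction. As TPM, Aim2 was at -0.031 for the combination against control and Adar at -0.017 for the combination against exercise, and after quantile normalization Ifih1 was at 0.022 for averaged exercise. The cause was not tested.

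With 1 library left out at a time, Aim2 ran from -0.077 to 0.15 for anti-PDL1 against control and from -0.14 to 0.15 for the combination against control. For exercise against control, Zbp1 ran from -0.15 to 0.63 and Eif2ak2 from -0.18 to 0.12. For the combination against anti-PDL1, Ifih1 ran from -0.47 to 0.045, Tlr3 from -0.43 to 0.14, Eif2ak2 from -0.30 to 0.11 and Aim2 from -0.18 to 0.11. Against exercise, Dhx58 ran from -0.019 to 0.51, Tlr3 from -0.25 to 0.054 and Adar from -0.019 to 0.12. For averaged exercise, Ddx58 ran from -0.18 to 0.031, Ifih1 from -0.13 to 0.13, Dhx58 from -0.25 to 0.063, Tlr3 from -0.046 to 0.24, Eif2ak2 from -0.17 to 0.036 and Adar from -0.066 to 0.060. Eif2ak2 ran from -0.26 to 0.14 for the interaction. The number of all genes passing for anti-PDL1 against control ran from 6, without control 2 or anti-PDL1 library 2, to 767 without control 4, and for the averaged antibody from 40, without exercise library 2, to 517 without control 4. Without controls 1 and 2 these counts were 4 and 28. Leaving out exercise library 1 took the genes passing for exercise against control from 0 to 611. The same omission took the interaction from 0 to 224 and the combination against exercise from 0 to 184.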

Other observations

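Some endosomal and inflammasome genes had their highest values in control libraries 1 and 2. They were chosen after their values were seen, and other genes of the same lists, such as Casp4 and Mlkl, did not share this order. Tlr7, an endosomal receptor for single-stranded RNA, was highest in control libraries 1 and 2, at 2.59 and 3.04 FPKM, against 0.91 and 1.27 FPKM in the other controls. Tlr8 stood at 3.75 and 4.42 FPKM in those libraries and Tlr13, which reads bacterial ribosomal RNA, at 7.30 and 8.24 FPKM, each above every other library. The inflammasome adaptor Pycard, at 2.96 and 3.96 FPKM, and the necroptosis kinase Ripk3, at 4.68 and 7.04 FPKM, had their highest values in the same libraries, as did the macrophage marker Adgre1, at 14.4 and 18.7 FPKM. Ddx58, at 5.21 and 5.69 FPKM, and Ifih1, at 2.94 and 3.18 FPKM, had their lowest control values there.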
